A study of Mus musculus with 36 samples.

Results

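Genes of ion channels and transmitter receptors were read in newborn mouse brain, in 3 lines. The members are autosomal genes outside chromosome 10 whose symbol starts with a channel or receptor prefix (Kcn, Scn, Cacn, Hcn, Clcn, Gabr, Gabbr, Gria, Grik, Grin, Grm, Glr, Chrn, Chrm, Htr, Adra, Adrb, Drd), less 6 named genes left out by the rule (Grm5, Gria1, Cacna1c, Cacna2d1, Cacna2d2 and Drd1). A gene was kept where a probe had a deposited detection value above 0.99 in at least 6 of the 18 arrays, and its brightest kept probe stands for it. This gave 37 genes of 4147 named genes with a kept probe. Of the 37, 31 encode a channel or receptor subunit or an auxiliary subunit. The prefixes also caught 6 genes that do not: the glutaredoxin genes Glrx, Glrx2, Glrx3 and Glrx5, the serine protease gene Htra3, and Kcnrg, which encodes a regulator of potassium channels.

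The 3 lines were the inbred strains A/J and B6 and a line labelled C10 congenic, and the title of the study names Rnf41, anxiety-like behaviour, depression and beta carboline seizures. In the series text the third line is A.B6chr10. Such a name usually stands for an A/J background with B6 material on chromosome 10; its extent is not given by the labels. Total RNA of 1 whole brain of postnatal day 0.5 was put on each Illumina Sentrix Mouse-6 array, with 6 brains per line and no treatment, and the labels give neither sex nor litter. Adult hippocampus of the same lines was not used here.

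Ion channels set how a neuron fires. Sodium channels carry the upstroke of the action potential, potassium channels bring the membrane back to rest, and calcium channels couple the spike to transmitter release. Transmitter receptors turn the released glutamate, GABA or acetylcholine into a current in the next cell. Around birth several of these families exchange early subunits for adult ones.

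Between 14415 and 15737 of 46116 probes were detected per array. Median correlation with the other brains of the line was lowest for C10 congenic brain 3 (r = 0.954), B6 brain 4 (0.961) and B6 brain 1 (0.970), against at least 0.979 elsewhere, all across probes. The Y-linked gene Eif2s3y read −7.3 in A/J brain 6 and at least 1496.8 in each B6 brain and 1730.1 in each congenic brain. Within A/J the summed signal of 2 measured sex-linked genes ran from −10.2 to 3241, so the low reading did not hold for every A/J brain. Neuron markers were measured for 9 of 12 genes, with summed signals of 52169 to 57628 in A/J, 43180 to 61720 in B6 and 51993 to 57946 in the congenic line. One of them, Rbfox3, passed the test as higher in B6 than in A/J (0.37 on the log2 scale, limma adjusted p = 0.0429). Red blood cell genes set B6 apart, with a summed signal of 33787 to 53024 in A/J, 9353 to 23232 in B6 and 24068 to 50783 in the congenic line over 3 of 8 listed genes, and none of the 3 stood at 0. The B6 minus A/J difference was −1.38 for Hba-a1, −5.79 for Hbb-b2 and 2.91 for Hbb-b1, and all 3 were called there and between the congenic line and B6. Their part in the B6 results below was not tested. Summed signals of the 2 measured astrocyte genes (774.4 to 1413.7 over all brains), the 2 choroid plexus genes (780.1 to 1371.1), the 3 microglia genes (537.5 to 1059.7), the 6 proliferation genes (1331.3 to 2182.4) and 1 vessel gene (91.3 to 357.1) overlapped between lines, and no gene of the oligodendrocyte lineage was measured. Csf1r, a microglial receptor gene (0.56), was higher and Rrm2, of DNA synthesis (−0.47), lower in the congenic line than in B6 (limma adjusted p = 0.0112 and 0.0367). In the same lists the microglia genes C1qa (0.05) and C1qb (−0.07) and the other proliferation genes were not called there. In a whole brain, fewer cells of a type and less RNA per cell cannot be told apart.

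Which families were measurable in the newborn brain differed widely. Probes of 87 genes of the rule were on the array and 50 of these genes were not kept, 42 of them with a probe detected in no array and 8 in 1 to 5 arrays. Among the 8 are Adra2b, Adrb1, Cacna1a, Cacng7, Kcne4 and Kcnq1. None of the 6 inward rectifier potassium channel genes was kept, nor any of the 6 adrenergic, 2 serotonin, 2 muscarinic, 1 dopamine, 1 glycine and 1 GABA-B receptor genes. Of voltage-gated potassium channels, 3 of 10 were kept, and of genes with the calcium channel prefix Cacn 5 of 12. The calcium- or sodium-activated potassium channels were kept for 4 of 5 genes, 2-pore potassium channels for 4 of 7, sodium channels for 3 of 5 and nicotinic receptors for 3 of 6. A gene without a kept probe may still be expressed, since a probe's brightness depends on the probe as well as on the RNA. No statement about the members that were not kept is made from the 37 that were.

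B6 and A/J brains were compared first, because they are the inbred strains. Called means a limma adjusted p under 0.05, Benjamini-Hochberg adjusted over all 15886 kept probes. Of the 37 genes 5 were called, Glrx higher and Chrnb2, Kcnn2, Kcnrg and Glrx2 lower in B6. That is 13.5% of the members, beside 16.1% of all kept probes and 15.3% of named genes. By direction, 1 of 37 was higher and 4 were lower, beside 8.12% and 7.99% of all kept probes. Restricted to channel and receptor genes, 2 of 31 were called (6.45%), both lower in B6. The median log2 difference was 0.00 over the 37 members and −0.02 over all kept probes, and the median size was 0.17 and 0.16. At an unadjusted p under 0.05 there were 11 members (29.7%), beside 28.8% of all kept probes. In 3 of the 37 all 6 brains of a line lay beyond all 6 of the other (Glrx, Glrx2 and Kcnrg), beside 8.56% of all kept probes, and none of these 3 is a channel or receptor gene.

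The called receptor gene was Chrnb2, on chromosome 3, which encodes the beta 2 subunit of the main high-affinity nicotinic acetylcholine receptor of the brain. Its signal, in the deposited intensity units, ran from 802 over a median of 832.3 to 885.7 in A/J, from 565 over 670.3 to 826.2 in B6, and from 710.9 over 810.8 to 855.7 in the congenic line. The means were 839 ± 29.0, 678 ± 88.1 and 803 ± 56.0 (SD, n = 6 each). Of the 6 B6 brains 5 lay below every A/J brain, and B6 overlapped the congenic line. The B6 minus A/J difference was −0.29 on the log2 scale of the shifted signal (SE 0.0893, limma adjusted p = 0.0286), 1.22-fold lower on that scale. The congenic line stood 0.23 above B6 (adjusted p = 0.107) and at −0.06 from A/J (adjusted p = 0.78), neither of them called. The B6 minus A/J call was lost without A/J brain 2 (adjusted p = 0.0503) or 3 (0.0674) and without B6 brain 1 (0.0582), 3 (0.0685) or 5 (0.0518). In the annotation, Chrnb2 overlaps Adar.

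Among channels the called gene was Kcnn2, on chromosome 18, which encodes the small-conductance calcium-activated potassium channel SK2, part of the afterhyperpolarisation that spaces spikes. A/J brains read 342.5, 390.1 and 428.6 (lowest, median and highest), B6 brains 276.7, 287.8 and 381.7, and congenic brains 354.6, 387.6 and 497.7. The line means were 387 ± 31.9, 306 ± 40.7 and 400 ± 51.1 (SD, n = 6 each). Of the 6 B6 brains 5 lay under every A/J brain, and the brain at 381.7 overlapped both other lines. B6 minus A/J was −0.28 (SE 0.0949, limma adjusted p = 0.0423), and the congenic line was higher than B6 by 0.32 (SE 0.0949, adjusted p = 0.0274), while the congenic line and A/J differed by 0.04 (adjusted p = 0.881). The lower level in B6 than A/J was not called without A/J brain 1 (0.0855), 3 (0.0834), 4 (0.0657) or 5 (0.0821), nor without B6 brain 2 (0.0527), 3 (0.0943), 4 (0.0623), 5 (0.0866) or 6 (0.0792). The difference from the congenic line was not called without B6 brain 3 (0.0654), 5 (0.0581) or 6 (0.0541) or congenic brain 3 (0.0786).

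Kcnrg, on chromosome 14, encodes a cytoplasmic protein that can lower potassium channel activity. Signals ran from 333.9 over a median of 428.1 to 537.5 in A/J, from 151.7 over 246 to 313.6 in B6, and from 264.4 over 338.7 to 386.3 in the congenic line. Means were 420 ± 74.5, 245 ± 53.2 and 331 ± 42.0 (SD, n = 6 each). No B6 brain reached the lowest A/J brain, and congenic brains lay between and overlapped both. B6 minus A/J was −0.63 (SE 0.122, limma adjusted p = 0.00062), which is a 1.55-fold lower shifted signal in B6. The deposited mean of B6 was 0.584 of that of A/J. The congenic line stood at −0.28 from A/J (adjusted p = 0.274) and at 0.35 from B6 (adjusted p = 0.0622). The latter was called without B6 brain 6 (0.033) or congenic brain 3 (0.0414). In the annotation Kcnrg overlaps Trim13 and Dleu2, and the probe's target was not checked.

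Glrx and Glrx2 are not channel genes and were caught by the prefix of the glycine receptors. They encode glutaredoxin 1, a cytosolic enzyme that reduces glutathione-bound proteins, and glutaredoxin 2, mainly mitochondrial. Glrx, on chromosome 13, read 494.2, 664.7 and 796.2 in A/J (lowest, median and highest), 1583, 2292.9 and 2757 in B6, and 464.8, 596.9 and 747.5 in the congenic line. Means were 651 ± 104, 2265 ± 381 and 604 ± 123 (SD, n = 6 each). All B6 brains lay above all others. B6 exceeded A/J by 1.69 (SE 0.134, limma adjusted p = 7.1e-10), and the congenic line fell by 1.79 from B6 (SE 0.134, adjusted p = 2.39e-10). Glrx2, on chromosome 1, ran the other way, at 2940 ± 308 in A/J, 2048 ± 257 in B6 and 2688 ± 360 in the congenic line (SD, n = 6 each). B6 minus A/J was −0.51 (SE 0.11, limma adjusted p = 0.00195), with all 6 B6 brains below all 6 of A/J, and the congenic line higher than B6 by 0.37 (adjusted p = 0.0263). Without B6 brain 1 (0.0548) or 6 (0.0559), or congenic brain 1 (0.0514), 2 (0.0617) or 3 (0.053), this last call was lost. Glrx3 (2769 ± 469, 3220 ± 504 and 3269 ± 516 in A/J, B6 and the congenic line) and Glrx5 (3541 ± 481, 3416 ± 228 and 3166 ± 633) were not called in any comparison (SD, n = 6 each). Htra3, the protease gene, was dim at 104 ± 38.7, 139 ± 61.3 and 85.6 ± 24.7 (SD, n = 6 each), with −0.38 for the congenic line against B6 (limma adjusted p = 0.128), and −0.25 without B6 brain 4 (0.316).

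**Figure D1:**
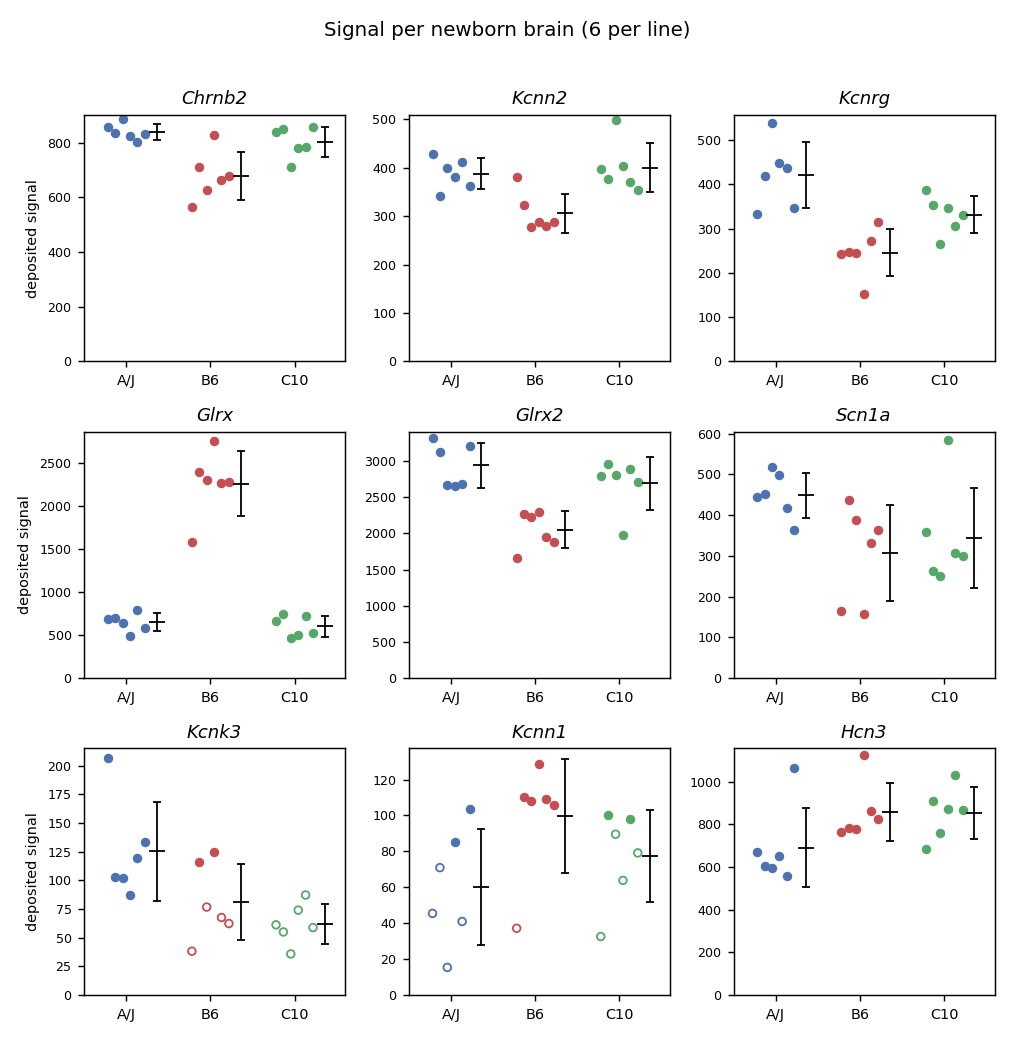
Deposited signal (y axis, linear, from 0) of 9 genes in each of 18 newborn brains, by line on the x axis. Filled points are detected, open points not detected, and the black bar is the mean with SD over 6 brains. Glrx in B6 lies above all other brains, B6 lies below A/J for Kcnrg and Glrx2, and the B6 brains of Chrnb2 and Kcnn2 overlap the other lines; Scn1a, Kcnk3, Kcnn1 and Hcn3 were not called.

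The promoters of 3 of the 5 called genes, Chrnb2, Kcnrg and Glrx, are printed to show the sequence at their starts. The RefSeq table matched 29 of 37 members. Each is the 250 bases before the start site in build GRCm38.p6, 5′ to 3′ on the gene's strand, with each CG dinucleotide in capitals. Chrnb2 lies at chr3:89764633-89764882 on the minus strand, Kcnrg at chr14:61607207-61607456 and Glrx at chr13:75839635-75839884, both on the plus strand. For Glrx the first of 2 listed starts was taken.
Chrnb2: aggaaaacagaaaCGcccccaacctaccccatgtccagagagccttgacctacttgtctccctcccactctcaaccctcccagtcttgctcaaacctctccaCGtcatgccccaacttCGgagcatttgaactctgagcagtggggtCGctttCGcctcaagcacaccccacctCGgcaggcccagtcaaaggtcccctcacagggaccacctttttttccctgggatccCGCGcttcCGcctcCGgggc
Kcnrg: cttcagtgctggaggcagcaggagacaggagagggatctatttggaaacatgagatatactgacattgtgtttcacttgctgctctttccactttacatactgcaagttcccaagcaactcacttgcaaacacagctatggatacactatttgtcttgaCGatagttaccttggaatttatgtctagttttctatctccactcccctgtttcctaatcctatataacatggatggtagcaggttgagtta
Glrx: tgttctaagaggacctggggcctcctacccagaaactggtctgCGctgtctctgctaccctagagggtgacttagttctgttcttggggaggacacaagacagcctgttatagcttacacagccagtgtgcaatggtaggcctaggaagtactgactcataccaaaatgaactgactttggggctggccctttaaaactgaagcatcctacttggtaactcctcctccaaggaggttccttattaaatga
The motif CG occurred 10 times in Chrnb2, once in Kcnrg and once in Glrx. In the 32851 promoter windows of the table the median was 6, and 92.1% held it. Windows with fewer CG than Chrnb2 made up 62.2% of the table, and with fewer than Kcnrg or Glrx 7.87%. CG reads the same on both strands, so 1 count covers both.

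By its brightest probe, no other potassium channel gene was called between any pair of lines. Kcnk3 encodes TASK-1 of the 2-pore family, which holds the resting potential. It was detected in 6 of 6 A/J, 2 of 6 B6 and 0 of 6 congenic brains. Signals were 86.8, 111.3 and 206.5 in A/J (lowest, median, highest), 38.1, 72.1 and 124.4 in B6, and 35.7, 59.9 and 87.1 in the congenic line. One congenic brain overlapped the lowest A/J brain. The congenic line, at 61.9 ± 17.5, stood at −0.53 from A/J at 125 ± 43.0 (SD, n = 6 each, limma adjusted p = 0.0686), and B6 at −0.36 from A/J (adjusted p = 0.0849). The probe passed the detection filter through the 6 A/J and 2 B6 brains, a filter that favours a gene high in A/J, and it was not well above background in any congenic brain. Without B6 brain 1 or 4, which enter through the spread shared by all lines, the congenic difference was called (adjusted p = 0.0382 and 0.0409), and without B6 brain 4 that of B6 (0.0324). Kcnk2 (TREK-1), Kcnk10 and Kcnk13, also 2-pore channels, had differences between −0.02 and 0.18 in the 3 comparisons. Kcnk2 read 2213 ± 273, 2449 ± 228 and 2482 ± 258 in A/J, B6 and the congenic line (SD, n = 6 each).

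Kcnn1, the SK1 gene, was dim, detected in 2 of 6 A/J, 5 of 6 B6 and 2 of 6 congenic brains. It read 15.3, 58.2 and 103.5 in A/J, 37.1, 108.5 and 128.4 in B6, and 32.5, 84.3 and 100.4 in the congenic line (lowest, median, highest). B6 minus A/J was 0.38 (SE 0.161, limma adjusted p = 0.112), and 0.51 without B6 brain 1, the lowest of its line (0.0191). The Kcnn1 probe passed the detection filter only with the B6 brains, a filter that favours a gene high in B6, so these values are no support for a difference. Kcnt1, a sodium-activated potassium channel gene, had 0.28 for the congenic line against A/J (adjusted p = 0.31). Kcnma1, the large-conductance BK channel, had 2 kept probes. Its brighter probe ran from 820.8 to 1091.8 in A/J, from 700.5 to 1200.2 in B6 and from 853.3 to 1305.3 in the congenic line, with no call. The dimmer probe was lower in the congenic line than in B6 (−0.29, limma adjusted p = 0.0462), so the 2 probes disagree. The voltage-gated potassium channels Kcna6, Kcnd2 (Kv4.2) and Kcnh3 and their partner Kcnip1 had adjusted p of 0.213 or more throughout. Kcna6 read 1914 ± 386, 2233 ± 397 and 2147 ± 437 in A/J, B6 and the congenic line (SD, n = 6 each). Kcnd2 read 1063 ± 128 in A/J, 1218 ± 366 in B6 and 1025 ± 191 in the congenic line (SD, n = 6 each), with B6 brain 1 at 496.1 and the other B6 brains at 1286.3 to 1546.5. Hcn3, a pacemaker channel gene, read 691 ± 187, 858 ± 136 and 854 ± 121 (SD, n = 6 each). Its B6 minus A/J difference was 0.30 (adjusted p = 0.121) and 0.42 without A/J brain 6 (0.011), which lay at 1063.2 against 559.9 to 669.7 in the other A/J brains. The congenic line minus A/J was also 0.30 (adjusted p = 0.275).

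Of the sodium channel genes, Scn1a encodes Nav1.1, the channel of fast-spiking interneurons, whose loss in people causes Dravet syndrome. Signals were 364, 447.7 and 516.7 in A/J (lowest, median, highest), 156.8, 346.9 and 437.3 in B6, and 251.6, 304.1 and 583.4 in the congenic line. Below every A/J brain lay 4 B6 brains and 5 congenic brains. B6 minus A/J was −0.52 (SE 0.184, limma adjusted p = 0.0588) and the congenic line minus A/J −0.36 (adjusted p = 0.365), so neither was called. The low B6 values were those of brains 1 and 4. The B6 minus A/J difference was −0.20 without both (adjusted p = 0.395), whereas it was called without B6 brain 2 (0.028), B6 brain 3 (0.0454) or congenic brain 4 (0.0344). Scn3b and Scn8a lay between −0.12 and 0.10. The other kept probe of Scn3b gave 0.35 for B6 minus A/J (adjusted p = 0.144), against −0.05 for the brighter one, and neither was called. The 5 genes with the prefix Cacn, Cacna1b (the N-type pore), Cacna2d3, Cacnb2, Cacnb3 and Cacng3, were grouped by symbol only. They ranged from −0.23 to 0.19 and had limma adjusted p of 0.199 or more. The chloride transport genes Clcn3 and Clcn4 ranged from −0.22 to 0.22, again without a call. Clcn3 read 4007 ± 404 in A/J, 3748 ± 94.5 in B6 and 3438 ± 464 in the congenic line (SD, n = 6 each), and its other kept probe was not called either.

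Among glutamate receptors, Gria2 encodes the AMPA receptor subunit that keeps calcium out of the channel. It read 10114, 11920 and 13355 in A/J, 3733, 10754 and 13131 in B6, and 12058, 13105 and 16657 in the congenic line (lowest, median, highest). The 3733 is B6 brain 4, apart from the other B6 brains at 9354 or more. B6 minus A/J was −0.35 (adjusted p = 0.256). The congenic line stood 0.55 above B6 (SE 0.199, limma adjusted p = 0.0751). Without B6 brain 4 that difference was 0.29 (adjusted p = 0.105) and B6 minus A/J −0.09 (adjusted p = 0.643). The congenic difference from B6 was 0.66 without B6 brain 1 (0.0292) and 0.36 without both (0.0373), the latter a choice made after seeing the values. Grin1, the obligatory NMDA receptor subunit, was dim, and the probe used was detected in 6 of 6 A/J, 4 of 6 B6 and 3 of 6 congenic brains. A/J brains read 117.4, 156.2 and 219, B6 brains 64.2, 119.4 and 233.2, and congenic brains 58.2, 93.5 and 102. All 6 congenic brains lay below all A/J brains, beside 2.01% of all kept probes without overlap in that comparison. The difference was −0.52 (SE 0.144, limma adjusted p = 0.0805), and was called without B6 brain 1 (0.0419) or 4 (0.0232). The other kept probe of Grin1 was as bright, with a mean signal of 124.5 against 124.4. It gave 0.02 for the congenic line minus A/J (adjusted p = 0.962), so the probes disagree there. Against B6 the congenic line had −0.27 (adjusted p = 0.238), which was −0.14 without B6 brain 4 (0.542), and the other probe gave −0.30 (adjusted p = 0.275). Grm8, a presynaptic metabotropic glutamate receptor gene, read 234 ± 45.9, 295 ± 37.2 and 258 ± 35.8 (SD, n = 6 each), with B6 0.27 above A/J (limma adjusted p = 0.0969).

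**Figure D2:**
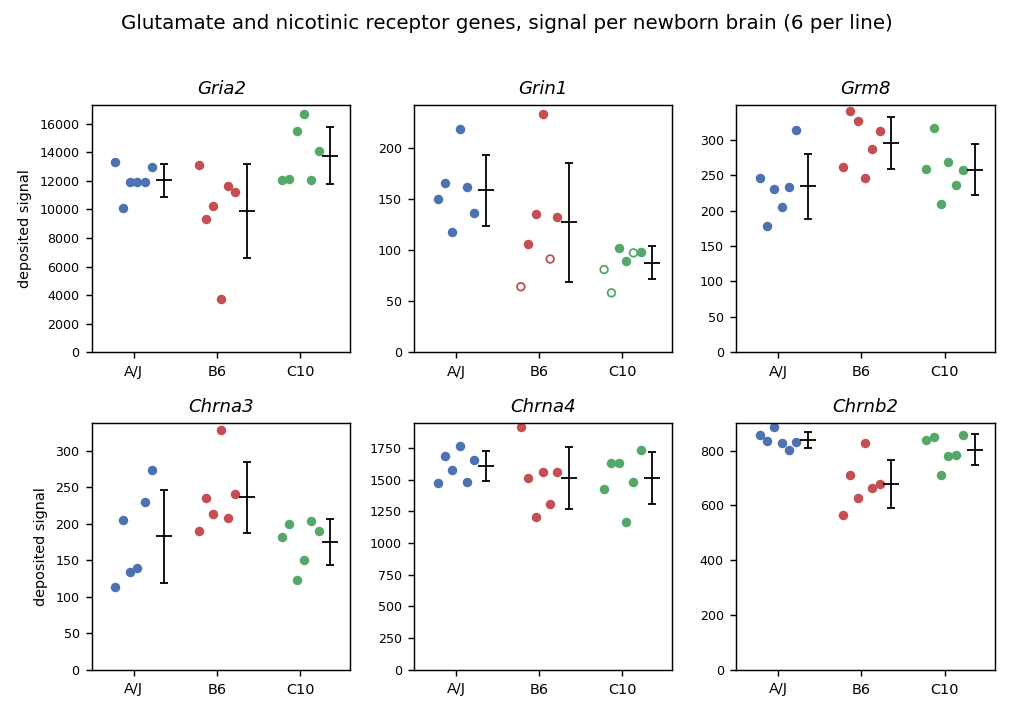
Deposited signal (y axis, linear, from 0) of 6 glutamate and nicotinic receptor genes in each of 18 newborn brains, by line on the x axis, with filled points for detected and open points for not detected values and the mean with SD over 6 brains. Gria2 in B6 brain 4 is at 3733, and for the Grin1 probe shown the 6 congenic brains lie below the A/J brains.

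Of the nicotinic genes, Chrna4, the usual partner of the beta 2 subunit, read 1608 ± 116, 1511 ± 245 and 1512 ± 203 (SD, n = 6 each). Its B6 minus A/J difference was −0.09 (limma adjusted p = 0.643), in the direction of Chrnb2 but not called. Chrna3, of the ganglionic receptor type, went the other way, with 0.29 for B6 minus A/J (limma adjusted p = 0.168), also not called. It had −0.31 in the congenic line against B6 (adjusted p = 0.16). Chrna3 overlaps Chrna5 in the annotation.

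The C10 congenic line and A/J were then compared, to show what differs where chromosome 10 material was exchanged by the reading of the name. None of the 37 genes was called by limma, beside 0.932% of all kept probes (0.441% higher, 0.491% lower) and 0.844% of named genes. At an unadjusted p under 0.05 there were 7 members (18.9%), beside 15.2% of all kept probes. Without B6 brain 1 or B6 brain 4, 2 members were called, Kcnk3 and Grin1, both lower in the congenic line, beside 1.91% and 1.99% of all kept probes called. Against B6, 3 of 37 were called (8.11%), Kcnn2 and Glrx2 higher and Glrx lower in the congenic line, beside 12.1% of all kept probes (5.99% higher, 6.12% lower) and 10.4% of named genes. Of channel and receptor genes alone, it was 1 of 31 (3.23%), Kcnn2. All 3 are among the 5 of the first comparison, which shares the B6 brains. For Kcnn2 the congenic line lay near A/J (means of 400 and 387) and for Glrx too (604 and 651). One member, Glrx, had no overlap between the congenic line and B6, beside 6.21% of all kept probes.

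The precision of the fit sets what could be seen. Standard errors ran from 0.0893 to 0.199 over the members, and the beads of a probe gave a median standard error of 1.22% of the signal. The 95% interval lay inside a 1.5-fold change either way for 27 of 31 channel and receptor genes in B6 against A/J, for 27 in the congenic line against A/J and for 29 in the congenic line against B6. It lay inside a 2-fold change of the shifted signal for all 31 in each comparison. The exceptions at 1.5-fold were Gria2, Kcnk3, Kcnn1 and Scn1a in the first, Gria2, Grin1, Kcnk3 and Scn1a in the second, and Chrna3 and Gria2 in the third. The shift shrinks the differences of dim genes, so larger changes of their deposited signal remain possible. For Kcnk3 the deposited mean in the congenic line was 0.495 of that in A/J. That ratio rests on values near background, since the probe was detected in no congenic brain. With congenic values raised to at least the lowest detected signal of their array, A/J stood 1.20-fold higher on the shifted scale.

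**Figure D3:**
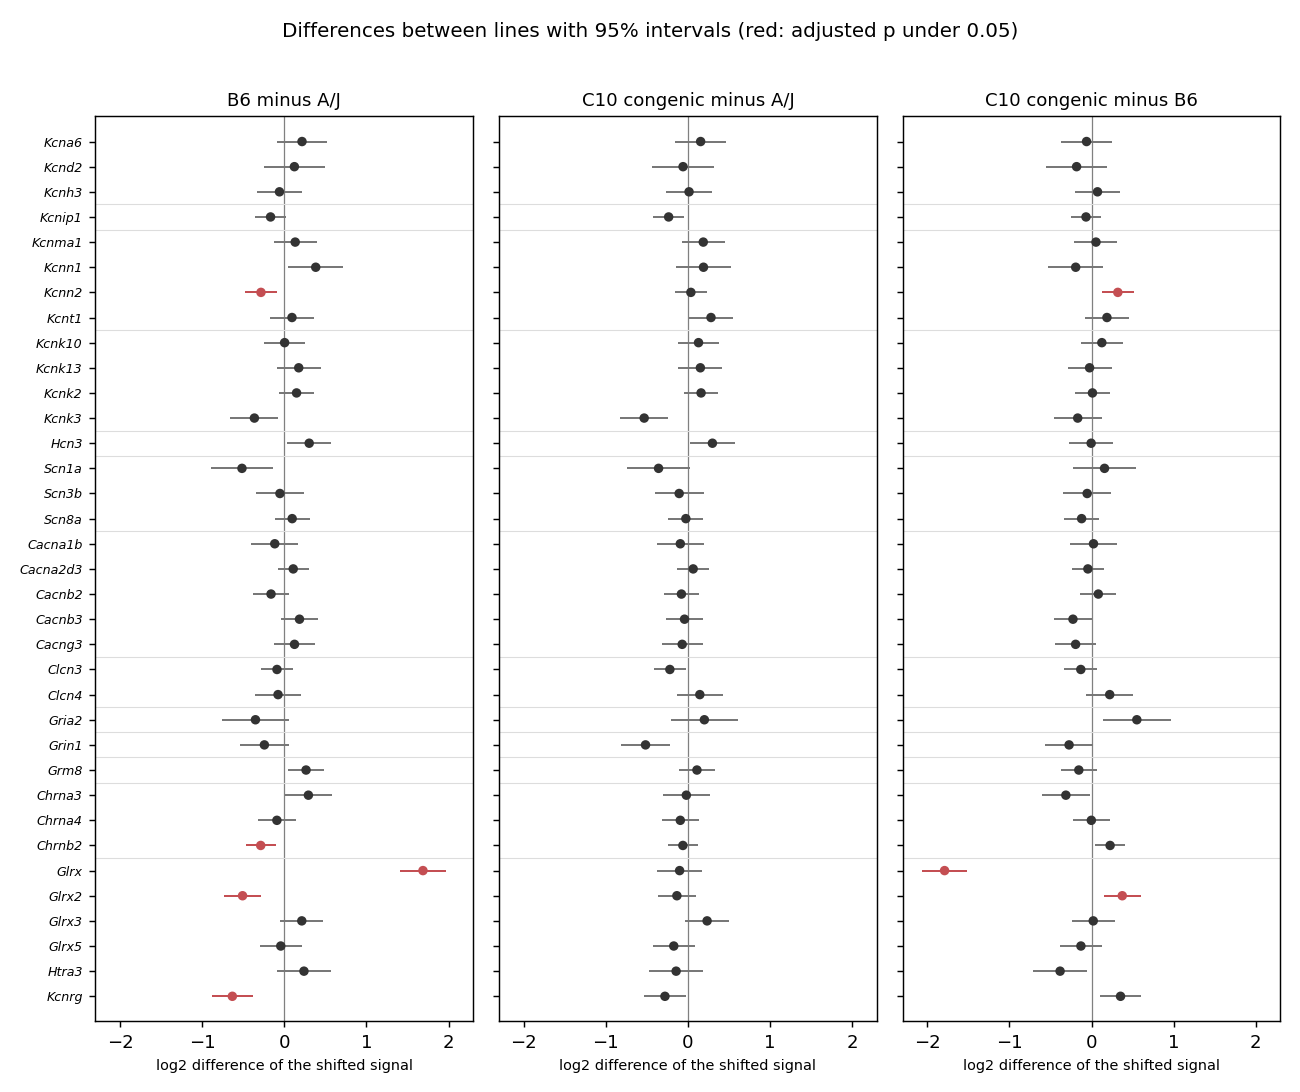
Log2 differences of the shifted signal (x axis) for 35 of the 37 genes (y axis, grouped by family, with the 6 genes that are no channel or receptor at the foot) in the 3 comparisons, with 95% intervals from the fit over 18 brains. Red marks the 5, 0 and 3 genes called at an adjusted p under 0.05. Most intervals include 0, and Glrx stands outside 2-fold in the 2 comparisons with B6.

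Genes that work with channels and receptors were read from 4 lists, with 39 of 106 genes measured. Between B6 and A/J 5 were higher and 2 lower, between the congenic line and A/J none was called, and between the congenic line and B6 4 were lower. The 7 genes are 17.9% of those measured, beside 16.1% of all kept probes, and the 4 are 10.3%, beside 12.1%. Dlg4, which encodes the postsynaptic scaffold PSD-95, read 373 ± 59.9 in A/J, 660 ± 180 in B6 and 348 ± 95.2 in C10 congenic brains (SD, n = 6 each). Its B6 minus A/J difference was 0.69 (limma adjusted p = 0.00166) and −0.79 in the congenic line against B6 (adjusted p = 0.000423), with all B6 brains above all others. Slc17a7, the vesicular glutamate transporter VGLUT1, was also higher in B6 than A/J (0.64), as were Rgs4, a brake on G-protein signalling (0.58), the beta-arrestin gene Arrb1 (0.55) and the scaffold gene Homer2 (0.41). Slc17a7 (−0.76), Arrb1 (−0.63) and Rgs4 (−0.51) were lower in the congenic line than in B6. Arrb1 was dim, detected in 2 of 6 A/J, 5 of 6 B6 and 1 of 6 congenic brains. It passed the detection filter only with the B6 brains, a filter that favours a gene high in B6, and it stays in the counts. Ric3, a chaperone that helps nicotinic receptors assemble, was lower in B6 than in A/J (−0.56, adjusted p = 0.00147), at 133 ± 26.7 against 231 ± 35.3 (SD, n = 6 each), as was the AMPA receptor auxiliary gene Shisa9 (−0.46). Chrnb2 and Ric3 were both lower in B6, and 5 of 6 B6 brains lay below every A/J brain for each. A link between them was not tested, and Chrna3 stood 0.29 above A/J in B6, not called. By list, 14 of 26 scaffold genes were measured (2 higher, 0 lower in B6 against A/J), 9 of 27 trafficking genes (0 and 2), 4 of 26 genes of transmitter supply (1 and 0) and 12 of 27 signalling genes (2 and 0).

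**Figure D4:**
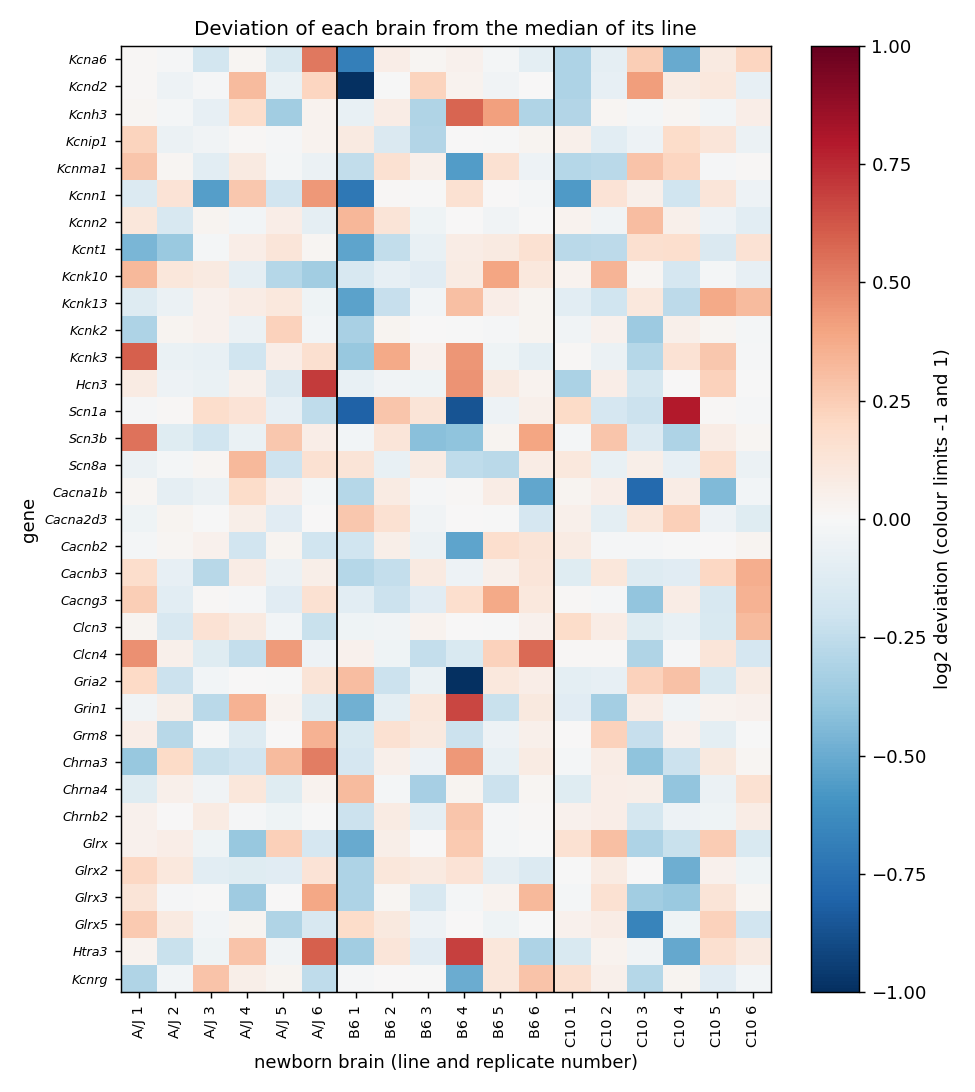
Deviation of each of the 18 brains (x axis) from the median of its line, on the log2 scale of the normalized signal, for 35 of the 37 genes (y axis). Colours run from −1 to 1, and the widest deviations lie in B6 brains 1 and 4, which have 7 genes each beyond 0.5 either way.

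How far single brains moved was uneven. Over the same 35 genes, the median size of the deviations from the line's median was 0.282 on the log2 scale in B6 brain 1, 0.178 in C10 congenic brain 3, 0.17 in B6 brain 4 and 0.151 in A/J brain 6, whereas it was 0.06 in A/J brain 2 and at most 0.141 in every other brain. Deviations beyond 0.5 occurred for 7 genes in B6 brain 1 and for 7 in B6 brain 4. With both of those brains left out, an alternative chosen after seeing the data, 7 members were called between B6 and A/J, 2 between the congenic line and A/J and 4 between the congenic line and B6. Of all kept probes, 17.2%, 3.8% and 10.9% were then called.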

How the data were processed

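RNA of 18 newborn brains (6 per line) was measured on Illumina Sentrix Mouse-6 arrays, 1 brain per array. The deposited signal is an intensity that can fall below 0 (lowest −59), and the submitters' processing notes name BeadStudio without a version. The authors' detection value per probe is a fraction, and above 0.99 was read as detected. Bead SDs, also a deposited intensity, and the deposited number of beads (an array median of 38 to 43) served for error only. Array quartiles of the deposited signal were nearly equal, with upper quartiles of 183.6 to 184.4, and the authors' series table was identical.

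The signal was shifted by 75, taken to log2 and quantile normalized without 556 control probes. The shift shrinks the log2 differences of dim genes. limma (version 3.58.1, in R 4.3.3) fitted 1 coefficient per line over all 18 brains with lmFit and eBayes. Two-sided p-values were Benjamini-Hochberg adjusted over all 15886 kept probes. The procedure was tested on simulated data.

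Probe names are an inference. Digits in a probe ID were read as an NCBI Gene ID only where they start with zeros. Of 11897 such IDs with 5 or 6 digits left, 82.6% were Gene IDs, against 35.1% to 46.0% after adding 1 to 50. Of 16535 IDs without leading zeros 11.3% were, against 10.9% to 11.4%. Levels of 2 probes of a gene correlated with r = 0.392 (1500 genes) where both had zeros, and with r = −0.00162 (802 genes) where 1 had none. Read to the letter, the member rule would take 49 genes. Its 12 added genes rest on IDs without zeros and were left out. Values of 2 of the 37 members are not reported here singly, and both stay in the counts. Probe sequences were not used here, so transcripts that share sequence or overlap cannot be told apart.

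Members and lists were chosen with earlier results of these data known. Named were all called members, the 5 largest differences not called per comparison, the 10 brightest members, the 6 genes that are no channel or receptor, and called partners and markers; other members were named after their values were seen. The labels do not say that the replicate numbers of the titles pair brains, and the main fit used no pairing. Nothing says the brains of a line came from separate litters, so p-values measure the spread between brains. The number of arrays limits the precision.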

Additional observations from a re-analysis of the deposited data

Results flagged for a closer look

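In 15 of the 105 groups of 6 brains (35 genes in 3 lines), 1 brain lay far from the other 5. The ratio given is the gap to the nearest brain divided by the group's range, on the normalized log2 scale, and lies beyond Dixon's 95% limit for 6 values. Chance alone marks about 1 in 20 groups. B6 brain 1 stood apart for Glrx (ratio 0.636, signal 1583 against 2270.2 to 2757), Kcna6 (0.777, 1448.6 against 2210.8 to 2507), Kcnd2 (0.829, 496.1 against 1286.3 to 1546.5), Kcnk2 (0.876, 1990.6 against 2495 to 2592.8) and Kcnn1 (0.804, 37.1 against 105.9 to 128.4). It was the lowest brain of its line for each of these 5 genes. B6 brain 4 was the lowest for the AMPA receptor gene Gria2 (0.715, 3733 against 9354.1 to 13131) and for Kcnrg (0.627, 151.7 against 243.2 to 313.6), and the highest for Hcn3 (0.689, 1126 against 763.8 to 863.6).

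A/J brain 6 was the highest for Hcn3 (0.723, 1063.2 against 559.9 to 669.7) and Kcna6 (0.718, 2669.9 against 1613.3 to 1865.8), and A/J brain 1 for Kcnip1 (0.649, 957.9 against 778 to 836.5). C10 congenic brain 3 was the lowest for Kcnk2 (0.799, 1971.3 against 2504.2 to 2656.8) and the highest for Kcnn2 (0.626, 497.7 against 354.6 to 404.2). C10 congenic brain 4 was the lowest for Glrx2 (0.779, 1973.8 against 2713.8 to 2957.6), and brain 1 for Kcnh3 (0.748, 70.5 against 99.8 to 110.9). The 3 brains with the lowest correlation to their own line, B6 brains 1 and 4 and congenic brain 3, hold 10 of the 15 values.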

How the results depend on the processing

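Of 5 members called between B6 and A/J, 3 (Glrx, Glrx2 and Kcnrg) were called under every alternative run, and Chrnb2 and Kcnn2 were not. Of 3 called between the congenic line and B6, Glrx was. No named difference changed sign. Without a filter on dim probes 3 members were called between B6 and A/J and 1 between the congenic line and B6. Of 45560 probes, 2149 and 1601 were then called. The limma adjusted p was 0.108 for Chrnb2 and 0.142 and 0.103 for Kcnn2. With array weights the counts were 15 for B6 against A/J, 6 for the congenic line against A/J and 6 against B6. Of all 15886 kept probes, 4876, 974 and 2207 were then called. With only the 2 lines compared in the fit, 2 members were called for the congenic line against A/J and 1 against B6. The same fits called 276 and 1522 of all kept probes. Leaving out B6 brains 1 and 4 gave 2 for the congenic line against A/J, beside 603 of all kept probes. Leaving out each brain in turn gave 3 to 7, 0 to 2 and 2 to 4 members. Of all kept probes, 2054 to 2898, 17 to 316 and 1542 to 2232 were then called. Without A/J brain 3 or B6 brain 5, 3 members were called between B6 and A/J, beside 2054 and 2311 of all kept probes. Reading IDs without leading zeros as Gene IDs gave 9 of 49 genes for B6 against A/J, beside 16.1% of all kept probes. Channel and receptor genes alone gave 2 of 31 and, for the congenic line against B6, 1. Over all probes, the congenic line against A/J had 148 calls, 1 without the filter (4003 at an unadjusted p under 0.05), 88 with a floor of 16, 276 with 2 lines, 974 with array weights and 17 to 316 leaving out 1 brain. B6 against A/J had 2559, and 4876 with array weights. Detection in all 18 arrays left 1160 of 1924 calls for the congenic line against B6. The replicate number as a block gave 5, 0 and 3 members. Of all kept probes 2727, 224 and 2078 were then called, against 2559, 148 and 1924 in the main fit. Same-numbered brains had r of −0.0913 to 0.334, mostly above 0. The labels do not say that the numbers pair brains, and these values do not settle it. The causes were not tested. Dim genes such as Kcnk3, Kcnn1 and Grin1 lie near background, which limits their differences.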
